A study of Homo sapiens with 9 samples.

Results

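The genes described here encode proteins on the tumour cell surface that act on T cells, natural killer (NK) cells and phagocytes. There are 10 of them, of 60676 genes in the count table, chosen by function and with earlier results of these data known. They are the PD-1 ligands CD274 and PDCD1LG2, the B7 family member CD276, the ectoenzyme gene NT5E and the nectin family genes PVR and NECTIN2. The others are the phagocytosis signal CD47 and the NKG2D ligand genes MICA, MICB and ULBP2. All 10 passed the filter on low counts and were among 15500 genes tested. RNA came from A549 cells, an established human lung adenocarcinoma line, transduced with lentivirus for 1 of 3 short hairpins: shNT, which has no target, or shLITATS1-1 or shLITATS1-2, both made to deplete the long noncoding RNA LITATS1. Cells of every group were transduced, left for 2 days, given puromycin at 1 ng/mL and taken after 3 more days, so all libraries share the virus and the selection. Each group had 3 libraries, named biological replicates in the series design. Nothing says that they were transduced separately, so the p-values speak only to the scatter among these 9 libraries, which may be technical.

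Each library held 19610514 to 19989652 fragments assigned to genes. LITATS1 was counted with 274, 283 and 328 fragments in the shNT libraries, 72, 61 and 57 with shLITATS1-1 and 69, 63 and 56 with shLITATS1-2, so the target was lower in all 6 knockdown libraries. Levels are counts scaled to a common library size (CPM), with edgeR's TMM correction for library composition. A gene is called where the edgeR quasi-likelihood F test, fitted on all genes, gave a Benjamini-Hochberg adjusted p under 0.05. Among 15 leukocyte receptors and markers, CD3D, CD3E, CD2, GNLY and PDCD1 had no fragment in any library, and the list summed to 1.95 to 2.82 CPM with shNT, 2.63 to 3.79 with shLITATS1-1 and 5.86 to 7.10 with shLITATS1-2. CD14 made up most of the last sum, at 5.36 ± 0.584 CPM (SD, n = 3). The pan-leukocyte gene PTPRC was at 0 with shNT and shLITATS1-2 and at 0.0175 CPM on average with shLITATS1-1. The epithelial keratins KRT8 and KRT18 stood at 3035 and 1151 CPM with shNT, and EPCAM was low, at 4.22. The 5 epithelial markers, none at 0, summed to 4200 to 4410, 7500 to 7610 and 3760 to 4010 CPM in the same order, the 5 fibroblast markers to 2.56 to 2.98, 1.84 to 2.47 and 1.35 to 1.88, and the 3 endothelial markers to 0.206 to 0.512, 0.105 to 0.211 and 0.0966 to 0.673. The part of these markers in the results below was not tested. In a bulk sample, fewer cells with a transcript and less of it per cell cannot be told apart.

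A tumour cell shows a T or NK cell both brakes and targets. PD-L1 (CD274) and PD-L2 (PDCD1LG2) bind the inhibitory receptor PD-1, and interferon gamma, acting through the JAK kinases and IRF1, is the classical inducer of PD-L1. PVR and NECTIN2 bind TIGIT, which inhibits, and CD226, which activates. CD47 binds SIRP-alpha on macrophages and holds back phagocytosis, and CD73, the product of NT5E, turns extracellular AMP into adenosine, which dampens lymphocytes. MICA, MICB and the ULBP proteins are induced by cellular stress and are read by NKG2D, an activating receptor of NK and CD8 T cells.

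RefSeq's promoter table for GRCh38.p14 held 9 of the 10 genes, and the 250 bases before the annotated start are shown for 4. CD274 is shown because its upstream letters are compared with interferon motifs. NT5E had the largest change among the genes of the set called higher with both hairpins. MICA and MICB are related genes, of which only MICA was called against shNT. All 4 lie on the plus strand, CD274 at chr9:5450292-5450541, NT5E at chr6:85449833-85450082, MICA at chr6:31403345-31403594 and MICB at chr6:31497895-31498144. Capitals mark matches on either strand to the interferon-stimulated response element (GAAA, any 2 bases, GAAA) and to the gamma-activated site TTCNNNGAA in CD274, to the GC box GGGCGG in NT5E, and to GGGCGG and CCAAT in MICA and MICB.
CD274: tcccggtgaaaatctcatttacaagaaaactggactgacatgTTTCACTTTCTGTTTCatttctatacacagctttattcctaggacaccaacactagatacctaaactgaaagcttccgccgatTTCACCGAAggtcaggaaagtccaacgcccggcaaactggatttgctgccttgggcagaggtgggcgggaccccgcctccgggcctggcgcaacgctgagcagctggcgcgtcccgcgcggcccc
NT5E: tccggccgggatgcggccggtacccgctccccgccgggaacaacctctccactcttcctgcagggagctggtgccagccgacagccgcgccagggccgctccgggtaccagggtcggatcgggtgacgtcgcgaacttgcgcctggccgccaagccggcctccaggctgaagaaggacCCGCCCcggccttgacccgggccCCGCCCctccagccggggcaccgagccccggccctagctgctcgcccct
MICA: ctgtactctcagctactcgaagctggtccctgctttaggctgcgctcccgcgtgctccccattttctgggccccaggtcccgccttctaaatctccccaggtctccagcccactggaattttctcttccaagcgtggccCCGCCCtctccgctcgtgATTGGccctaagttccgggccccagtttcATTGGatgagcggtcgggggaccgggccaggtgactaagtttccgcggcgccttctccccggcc
MICB: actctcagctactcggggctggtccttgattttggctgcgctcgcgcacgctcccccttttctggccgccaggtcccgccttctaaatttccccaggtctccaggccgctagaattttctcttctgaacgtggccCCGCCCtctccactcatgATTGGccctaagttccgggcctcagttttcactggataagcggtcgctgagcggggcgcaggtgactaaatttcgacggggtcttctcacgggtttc

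In CD274, 2 matches to the interferon-stimulated response element overlap each other on the minus strand, starting 208 and 202 bases before the start, and 1 match to TTCNNNGAA begins at 125. Of 35116 promoter windows of this length, 3.02% hold the first motif and 6.57% the second, and among the 9 genes of the set with a promoter CD274 alone has either. The GC box is in 8 of these 9 genes and in 42.6% of all windows, and CCAAT is in CD276, MICA, MICB and ULBP2 and in 32% of all. MICA and MICB are 85% identical over 246 aligned bases. Both hold a GC box followed by a CCAAT match, at 111 and 93 bases before the start in MICA and at 115 and 97 in MICB, while a second CCAAT match at 64 was found in MICA and not in MICB. The CAGA box CAGACA, the core to which SMAD proteins bind, was found in ULBP2 alone of the set and in 13.6% of all windows. No window of the set held TGANTCA (the AP-1 site, 6.57% of all) or the heat shock element (GAA, TTC and GAA, each 2 bases apart, 0.441%). ACGTG, the core of hypoxia response elements, was found in CD276, CD47 and MICB, and in 18.5% of all windows.

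To rank the genes among each other, levels were divided by the length of their merged exons in GENCODE 29 (RPKM). With shNT the order was PVR (54.7 RPKM), NECTIN2 (26.1), MICA (17.5), NT5E (14.0), CD276 (13.8), CD47 (9.57), MICB (7.04), ULBP2 (2.69), CD274 (0.512) and PDCD1LG2 (0.311). NT5E and CD276 were the neighbours whose libraries overlapped. PVR lay at the 95.8th percentile of 15397 genes with a length and PDCD1LG2 at the 11.6th, so the set runs from abundant to barely detected transcripts in these cells. With shLITATS1-1, NT5E moved to 54.9 RPKM and overlapped with PVR (55.8), PDCD1LG2 (1.57) stood above CD274 (1.05), and MICB (6.47) and ULBP2 (6.19) overlapped. With shLITATS1-2, NT5E (59.6) and PVR (58.0) again overlapped at the top, and CD274 (0.453) and PDCD1LG2 (0.381) overlapped at the bottom.

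**Figure D1:**
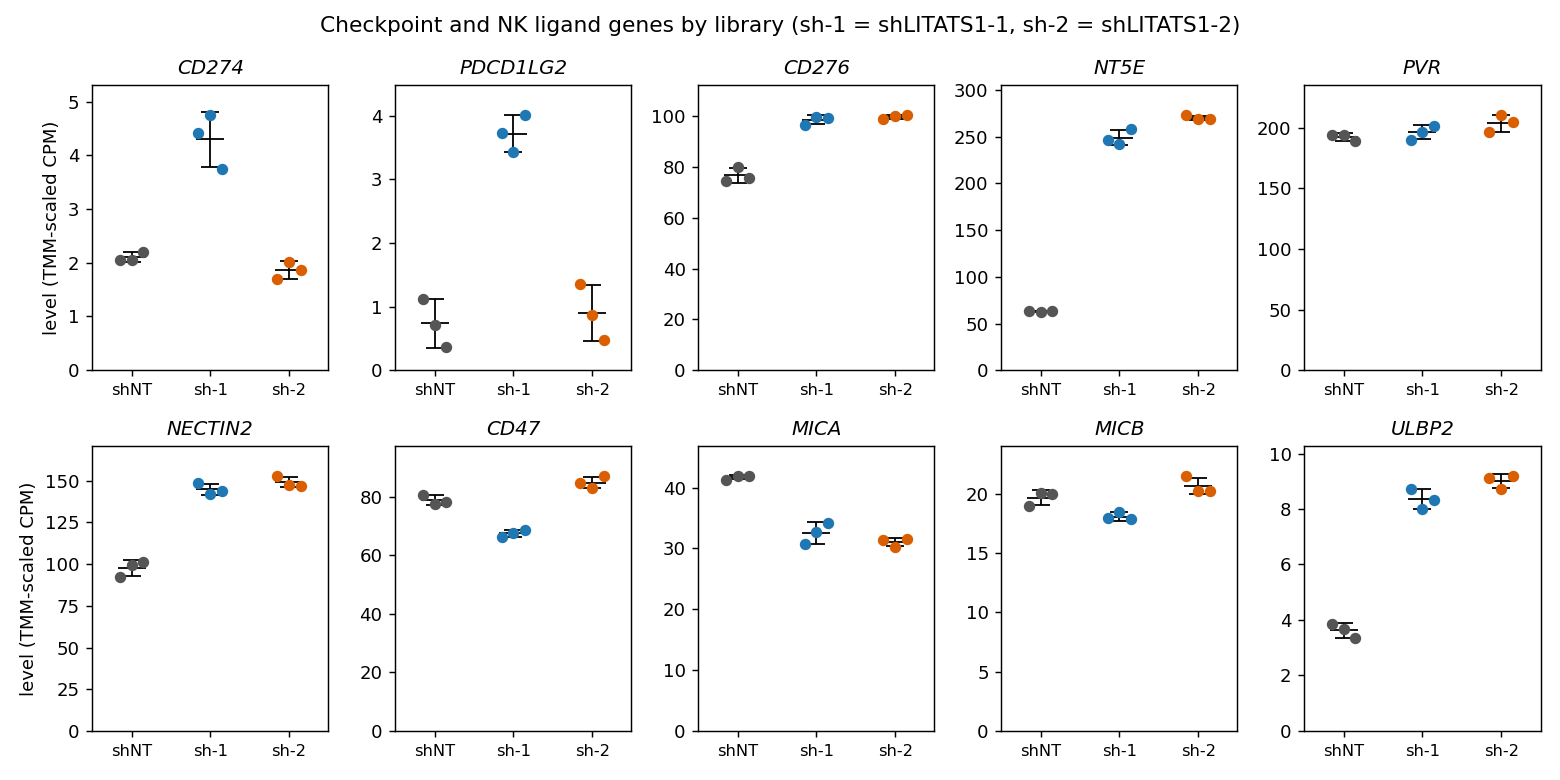
Level of each gene in TMM-scaled CPM (vertical axis, from 0) in the 3 libraries of each hairpin (points), with the mean and SD (bar). NT5E and ULBP2 lie higher in all 6 LITATS1 knockdown libraries, MICA lies lower in all 6, and CD274 and PDCD1LG2 lie higher with shLITATS1-1 alone.

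Each LITATS1 hairpin was compared with shNT to see which of these transcripts change on LITATS1 depletion. With shLITATS1-1, CD274, PDCD1LG2, CD276, NT5E, NECTIN2 and ULBP2 rose, CD47 and MICA fell, and PVR and MICB did not pass. That is 8 of 10 called, where 61.0% of all tested genes were called, 30.5% higher and 30.5% lower. With shLITATS1-2, CD276, NT5E, PVR, NECTIN2, CD47 and ULBP2 rose, MICA fell, and CD274, PDCD1LG2 and MICB did not pass. That is 7 of 10, against 56.7% of all genes, 27.8% higher and 28.9% lower. The set's median log2 fold change was 0.47 for shLITATS1-1 and 0.20 for shLITATS1-2, and that of all tested genes was -0.0070 and -0.0040. The set was chosen with earlier results of these data known, so its counts and medians only describe it. Both comparisons use the same 3 control libraries, so they are not independent of each other. Changes of at least 2-fold were called in 4 genes of the set with shLITATS1-1 (8.68% of all genes) and in NT5E and ULBP2 with shLITATS1-2 (5.95%).

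NT5E, on chromosome 6 from 85449584 to 85495791, changed most among the genes that rose with both hairpins. Its level was 63.0, 62.9 and 63.9 CPM in the shNT libraries, 247, 242 and 258 with shLITATS1-1, and 273, 269 and 269 with shLITATS1-2. The groups did not overlap. The increase was 3.94-fold (95% interval 3.75 to 4.14) under shLITATS1-1 and 4.27-fold (4.07 to 4.49) under shLITATS1-2, adjusted p = 7.92e-55 and 2.27e-56 in edgeR. Of all tested genes, 1.26% changed more under shLITATS1-1 and 0.497% under shLITATS1-2, counting either direction. Between the hairpins NT5E was 1.09-fold higher with shLITATS1-2 (interval 1.04 to 1.13, adjusted p = 0.000709 in edgeR).

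Around NT5E, 15 genes of extracellular ATP and adenosine were listed, among them enzymes, transporters and the adenosine receptors, and 10 were tested. With shLITATS1-1, 5 rose and 4 fell, with a median log2 fold change of 0.084, and with shLITATS1-2, 3 rose and 5 fell, with a median of -0.17. For this list and the wider lists below, the shares of all tested genes apply. These were 30.5% higher and 30.5% lower with shLITATS1-1, and 27.8% higher and 28.9% lower with shLITATS1-2. ENTPD1, the CD39 gene whose enzyme makes the AMP that CD73 uses, stood at 5.72 ± 1.08 CPM in the controls (SD, n = 3), 5.44 ± 0.352 under shLITATS1-1 and 3.42 ± 0.307 under shLITATS1-2. The first difference did not pass, and with the second hairpin ENTPD1 fell by 0.74 on the log2 scale. ENTPD2, which hydrolyses ATP, rose by 1.67 and 1.17 but from 1.01 CPM. ADORA2B, an adenosine receptor, fell from 19.8 CPM to 6.20 with the first hairpin (log2 -1.68) and to 16.4 with the second (-0.27), and the second call was lost under scaling by library size alone (adjusted p = 0.0666 in edgeR). DPP4, which anchors adenosine deaminase at the surface, rose by 1.74 and 1.87 from 1.18 CPM, and ADA, the deaminase itself, rose by 0.37 and 0.81. SLC29A2, an equilibrative nucleoside transporter, fell by 1.02 and 1.07 on the log2 scale.

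The PD-1 ligand genes lie next to each other on chromosome 9, CD274 from 5450503 to 5470566 and PDCD1LG2 from 5510570 to 5571254. CD274 had 40, 40 and 43 fragments in the shNT libraries, or 2.05, 2.05 and 2.21 CPM. It had 4.42, 4.74 and 3.74 CPM with shLITATS1-1 and 1.69, 2.02 and 1.87 with shLITATS1-2. The first hairpin's libraries lay above the controls and the second's lay just below them. CD274 rose 2.04-fold with shLITATS1-1 (interval 1.62 to 2.57, adjusted p = 1.35e-07 in edgeR). With shLITATS1-2 it did not pass, with a log2 fold change of -0.17 and an interval of -0.56 to 0.21.

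PDCD1LG2 rested on few fragments, 22, 14 and 7 with shNT, 71, 65 and 76 with shLITATS1-1 and 28, 18 and 10 with shLITATS1-2. In CPM these were 1.13, 0.717 and 0.360, then 3.73, 3.42 and 4.0, then 1.35, 0.867 and 0.481. The shLITATS1-1 libraries stood above all others, and the other 2 groups overlapped. The rise with shLITATS1-1 was 5.03-fold (interval 3.58 to 7.06, adjusted p = 1.21e-12 in edgeR), and 0.690% of tested genes changed more. With shLITATS1-2 it did not pass (1.22-fold, interval 0.773 to 1.93). That value was 1.67-fold without shNT replicate 1, 1.5-fold without shLITATS1-2 replicate 3, 0.974-fold without shNT replicate 3 and 0.917-fold without shLITATS1-2 replicate 1, none of which passed.

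Tested directly, CD274 was lower with shLITATS1-2 than with shLITATS1-1 by 1.20 on the log2 scale (SE 0.17, adjusted p = 3.10e-09 in edgeR). For PDCD1LG2 the log2 difference was -2.04 (SE 0.23, adjusted p = 1.31e-11 in edgeR). The PD-1 ligands differed between hairpins with which LITATS1 fell by 2.18 and 2.32 on the log2 scale. PDCD1LG2 fragments per CD274 fragment were 0.354 ± 0.194 in the controls (SD, n = 3), 0.879 ± 0.176 with shLITATS1-1 and 0.495 ± 0.278 with shLITATS1-2, a ratio that does not depend on library scaling. The nearest protein-coding genes on either side were named after their values were seen. PLGRKT, 12625 bases before CD274, had log2 fold changes of 0.029 (adjusted p = 0.739 in edgeR) and -0.33 (7.34e-05). RIC1, 57771 bases after PDCD1LG2, had 0.068 (adjusted p = 0.312 in edgeR) and 0.49 (2.57e-12). Between the hairpins, PLGRKT differed by -0.359 (adjusted p = 1.68e-05 in edgeR) and RIC1 by 0.425 (2.97e-10).

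Of 21 genes that induce PD-L1 or control its stability, all tested, 7 rose and 8 fell with shLITATS1-1 and 7 rose and 7 fell with shLITATS1-2, with medians of 0.0012 and -0.080. Of all tested genes, 61.0% and 56.7% were called, so this list lay near that share. IFNGR1, a chain of the interferon gamma receptor, was 48.2 ± 0.566 CPM in the controls (SD, n = 3), 98.2 ± 3.65 under shLITATS1-1 and 30.1 ± 2.03 under shLITATS1-2. It rose by 1.03 and fell by 0.68 on the log2 scale, and the hairpins differed by -1.70 (adjusted p = 1.54e-43 in edgeR). IFNGR2, the other chain of the receptor, rose with both hairpins instead, by 0.21 and 0.49 on the log2 scale. JAK2, a kinase of that receptor, fell from 24.01 CPM to 18.5 and 15.1 (log2 -0.38 and -0.67). IRF1, which binds the CD274 promoter, rose by 0.35 and 0.44, and CMTM6, which keeps PD-L1 at the cell surface, by 0.35 and 0.29.

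CD276 encodes B7-H3, a B7 family protein that is common on carcinoma cells. It stood at 74.5, 79.9 and 75.7 CPM with shNT, at 96.5, 99.8 and 99.5 with shLITATS1-1 and at 98.9, 99.95 and 100.3 with shLITATS1-2. All 6 knockdown libraries lay above the controls and the 2 knockdown groups overlapped. The increase was 1.29-fold (interval 1.22 to 1.36) and 1.30-fold (1.23 to 1.37), adjusted p = 8.62e-13 and 1.36e-13 in edgeR. The difference between the hairpins did not pass, with an interval of -0.059 to 0.091 on the log2 scale. Library-size scaling moved it to 0.15, past the threshold (adjusted p = 0.000465 in edgeR).

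Among 13 other B7 and butyrophilin genes, 10 were tested. With shLITATS1-1, 6 rose and ICOSLG fell, with a median log2 fold change of 0.32, and with shLITATS1-2, 4 rose and 2 fell, with a median of 0.16; under library-size scaling 6 rose and neither fall passed. VSIR, which encodes the checkpoint protein VISTA, rose by 0.67 (SE 0.10) and 0.59 (SE 0.0996). BTN3A1, which presents phosphoantigen signals to gamma delta T cells, rose by 0.43 and fell by 0.23, and BTN3A3 rose by 0.45 with the first hairpin and did not pass with the second (-0.27). The fall of BTN3A1 was lost in DESeq2 (adjusted p = 0.0858), under library-size scaling (0.28 in edgeR), with no filter (0.0565 in edgeR), and when shNT replicate 3 (0.158) or shLITATS1-2 replicate 2 (0.115) was left out. The rise of BTN3A3 was lost in DESeq2 (adjusted p = 0.0611) and when shNT replicate 1 (0.0861 in edgeR) or shLITATS1-1 replicate 2 (0.123) was left out. HHLA2, a B7 family ligand singled out after its values were seen, went from 0.12 CPM to 1.79 with shLITATS1-1 and 0.450 with shLITATS1-2.

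PVR and NECTIN2 lie on chromosome 19, from 44643798 to 44663583 and from 44846175 to 44889228, and compete for the same receptors on lymphocytes. PVR was nearly level, at 194, 194 and 189 CPM with shNT, 190.2, 197 and 202 with shLITATS1-1 and 196, 210.3 and 205 with shLITATS1-2. It did not pass with shLITATS1-1 (1.02-fold, interval 0.98 to 1.07). With shLITATS1-2 it was 1.06-fold higher (interval 1.01 to 1.11, adjusted p = 0.0236 in edgeR). That call was lost with no filter (adjusted p = 0.0624 in edgeR) and on leaving out shNT replicate 3 (0.114), shLITATS1-2 replicate 2 (0.18) or its replicate 3 (0.0663).

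NECTIN2 was 92.4, 99.6 and 101 CPM with shNT, 149, 142 and 144 with shLITATS1-1 and 153, 148 and 147 with shLITATS1-2. The knockdown libraries lay above the controls with no overlap. The rise was 1.48-fold (interval 1.41 to 1.56) and 1.53-fold (1.45 to 1.61), adjusted p = 1.63e-22 and 3.13e-24 in edgeR, and the hairpins did not differ past the threshold (interval -0.028 to 0.11 on the log2 scale). Under library-size scaling that difference was 0.17 and passed (adjusted p = 1.44e-05 in edgeR). There were 0.508 ± 0.0304 NECTIN2 fragments per PVR fragment in the controls (SD, n = 3), 0.738 ± 0.0375 with shLITATS1-1 and 0.732 ± 0.0400 with shLITATS1-2. Of the nearest protein-coding genes, named after their values were seen, BCAM, 24754 bases before NECTIN2, rose by 0.68 and 0.29 on the log2 scale, and TOMM40, 1341 bases after it, fell by 0.57 and 0.086.

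Of 4 further nectin family genes, 3 rose and NECTIN1 fell with shLITATS1-1, and 2 rose with shLITATS1-2, with medians of 1.08 and 0.40. NECTIN3, an adherens junction protein, rose from 44.8 CPM to 108 and 76.9 (log2 1.26 and 0.78). CADM1, the ligand of CRTAM on activated T and NK cells, rose from 38.4 CPM to 71.1 with shLITATS1-1 (0.89). With shLITATS1-2 CADM1 was 38.9 CPM and did not pass (0.020, SE 0.052), though it did under library-size scaling (0.13, adjusted p = 0.0231 in edgeR). The hairpins differed for CADM1 by -0.87 (adjusted p = 2.64e-26 in edgeR). NECTIN1 fell by 0.27 with the first hairpin and did not pass with the second (-0.11, SE 0.067).

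CD47, on the minus strand of chromosome 3 from 108043094 to 108091862, moved in opposite directions. Its level was 80.6, 77.4 and 78.2 CPM with shNT, 66.2, 67.5 and 68.6 with shLITATS1-1, and 84.5, 83.0 and 86.9 with shLITATS1-2. The 3 groups did not overlap. CD47 fell to 85.7% of the control with shLITATS1-1 (interval of the ratio 0.809 to 0.907, adjusted p = 2.78e-06 in edgeR) and rose to 108% with shLITATS1-2 (1.02 to 1.14, adjusted p = 0.0170). The rise was lost without shNT replicate 2 (adjusted p = 0.0714 in edgeR), shNT replicate 3 (0.0582) or shLITATS1-2 replicate 3 (0.0957). The difference between the hairpins, 1.26-fold (interval 1.19 to 1.33, adjusted p = 6.93e-11 in edgeR), was kept when any 1 of the 9 libraries was left out, at log2 values of 0.31 to 0.35. QPCTL, whose enzyme modifies CD47 for binding to SIRP-alpha, rose by 0.20 with shLITATS1-1 and did not pass with shLITATS1-2 (-0.10).

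**Figure D2:**
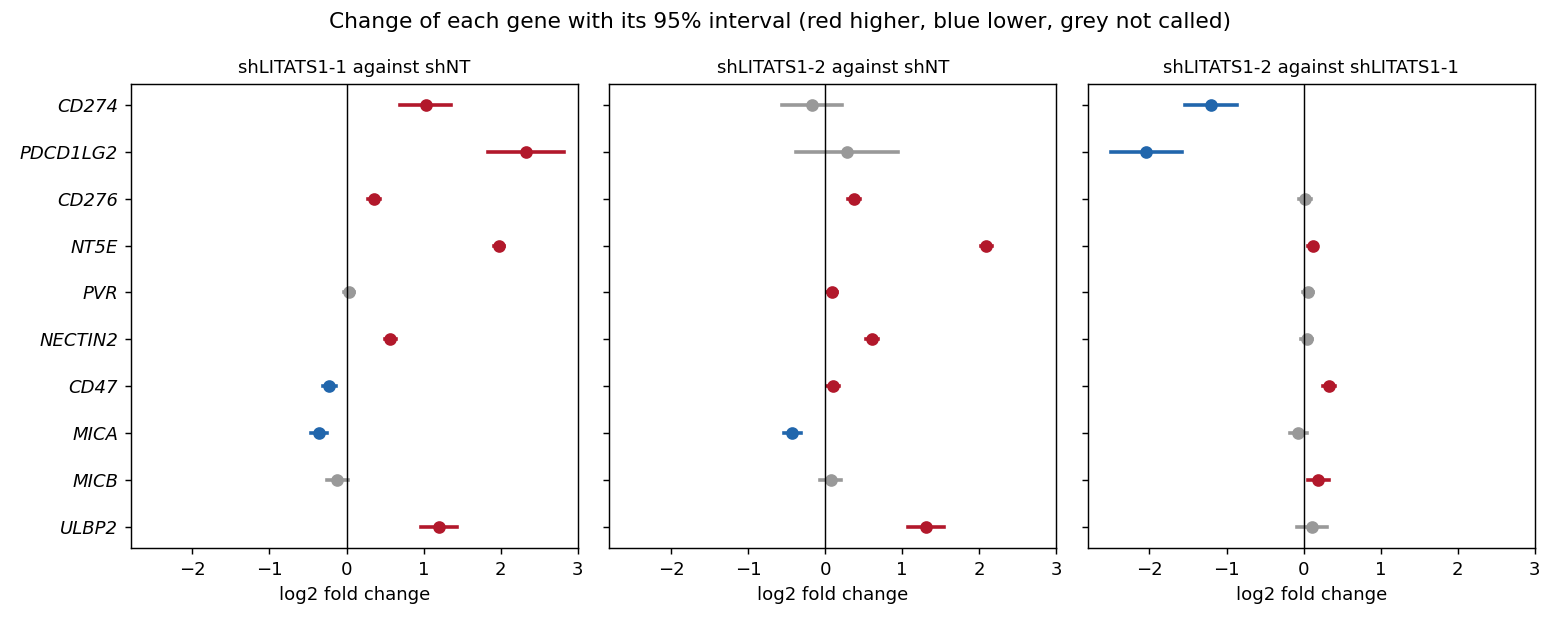
Log2 fold change (horizontal axis) of each gene in the 3 comparisons, with the 95% interval from edgeR (line); red is called higher, blue called lower, grey not called. NT5E stands near 2 with both hairpins, and CD274 and PDCD1LG2 differ most between the hairpins.

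MICA and MICB lie in the major histocompatibility complex on chromosome 6, MICA from 31399784 to 31415315 and MICB from 31494881 to 31511124. Of distinct 50-base stretches in their GENCODE 29 transcripts, 2.43% of MICA's and 2.86% of MICB's also occur in another gene. MICA was 41.3, 41.9 and 41.9 CPM with shNT, 30.7, 32.8 and 34.2 with shLITATS1-1 and 31.4, 30.2 and 31.5 with shLITATS1-2. All 6 knockdown libraries lay below the controls. It fell to 78.1% (interval of the ratio 0.725 to 0.841) and 74.6% (0.692 to 0.803) of the control, adjusted p = 2.96e-08 and 2.05e-10 in edgeR, and the hairpins did not differ past the threshold (log2 interval -0.18 to 0.045).

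MICB was 18.96, 20.06 and 20.04 CPM with shNT, 17.9, 18.5 and 17.9 with shLITATS1-1 and 21.5, 20.3 and 20.3 with shLITATS1-2. The groups did not overlap, yet neither change against shNT passed (0.919-fold, interval 0.836 to 1.01, and 1.05-fold, interval 0.959 to 1.15). Under library-size scaling the second did, at a log2 fold change of 0.18 (adjusted p = 0.0136 in edgeR). Between the hairpins MICB was 1.14-fold higher with shLITATS1-2 (log2 interval 0.058 to 0.33, adjusted p = 0.0111 in edgeR), a call lost without shLITATS1-2 replicate 1 (adjusted p = 0.0553). MICB fragments per MICA fragment were 0.472 ± 0.0114 in the controls (SD, n = 3), 0.557 ± 0.0319 with shLITATS1-1 and 0.666 ± 0.0205 with shLITATS1-2, with no overlap between the groups. HLA-B, 42596 bases before MICA and named after its values were seen, rose by 1.34 and 1.03 on the log2 scale.

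ULBP2, on chromosome 6 from 149942000 to 149949235, rose with both hairpins. It was 3.84, 3.69 and 3.34 CPM with shNT, 8.73, 8.01 and 8.32 with shLITATS1-1 and 9.13, 8.71 and 9.18 with shLITATS1-2. Every knockdown library exceeded every control. The rise was 2.30-fold (interval 1.95 to 2.72) and 2.48-fold (2.12 to 2.92), adjusted p = 3.13e-14 and 3.07e-16 in edgeR, and the hairpins did not differ past the threshold (log2 interval -0.086 to 0.30). Under library-size scaling that difference was 0.24 and passed (adjusted p = 0.0264 in edgeR). Of ULBP2's 50-base stretches, 32.2% also occur in other genes, chiefly RAET1L and RAET1G, so its counts and theirs are uncertain.

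The other NKG2D ligands sit in the same cluster as ULBP2. Of 5, all tested, 4 rose and ULBP1 fell with shLITATS1-1, and 4 rose with shLITATS1-2 while ULBP3 did not pass, with median log2 fold changes of 1.51 and 1.01. RAET1G rose from 2.20 ± 0.589 CPM (SD, n = 3) to 15.7 ± 0.837 and 4.45 ± 0.910 (log2 2.83 and 1.01). RAET1L rose by 1.51 and 1.61 from 1.57 CPM, and RAET1E by 1.54 and 1.05 from 2.24 CPM, with 33.3% of RAET1E's stretches shared with other genes. ULBP1, outside the naming rule and singled out after its values were seen, went from 4.50 ± 0.305 CPM to 2.76 ± 0.261 and 5.96 ± 0.332. ULBP1 fell by 0.70 under shLITATS1-1 and rose by 0.41 under shLITATS1-2 on the log2 scale. Summed per length, all 8 NKG2D ligand genes came to 39.6 ± 1.41 RPKM in the controls (SD, n = 3), 54.2 ± 0.913 with shLITATS1-1 and 45.4 ± 0.644 with shLITATS1-2. MICA and MICB made up 61.9% ± 2.36, 37.1% ± 1.37 and 45% ± 1.49 of these sums.

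**Figure D3:**
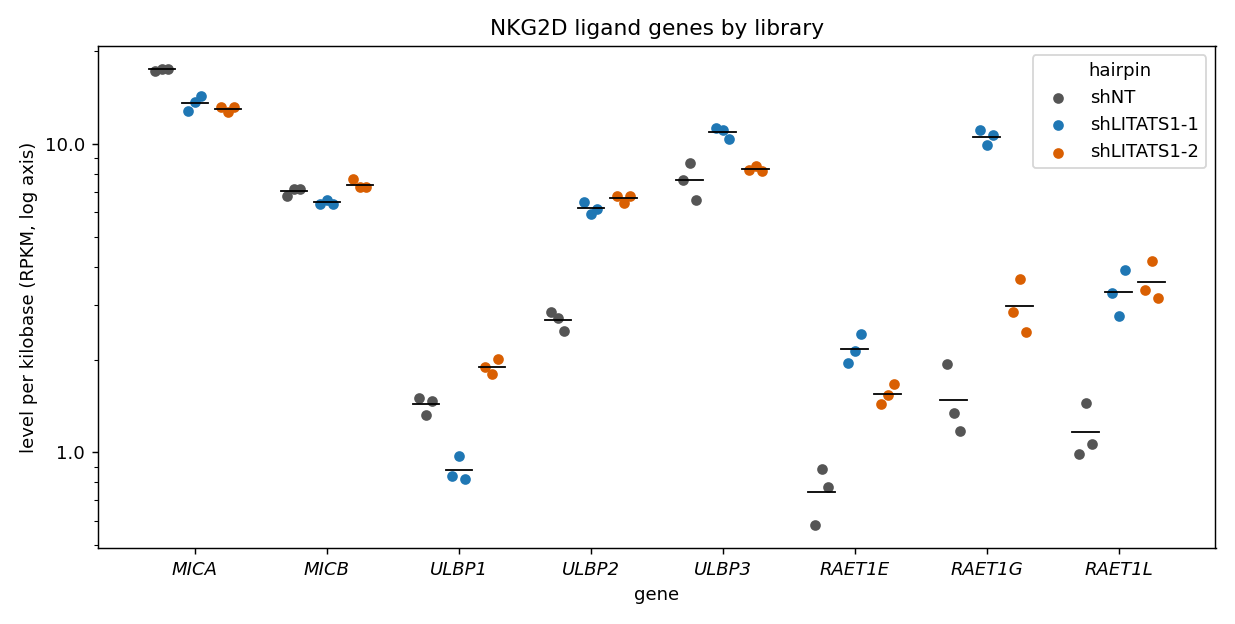
Level per kilobase (RPKM, log axis) of the 8 NKG2D ligand genes (horizontal axis) in each library (points, coloured by hairpin; line, mean of 3). MICA is highest with shNT at 17.5 RPKM, and ULBP2, RAET1E, RAET1G and RAET1L lie higher in all 6 knockdown libraries than in the controls.

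Proteases and enzymes that release or modify these ligands were followed in a list of 9, all tested. With shLITATS1-1, 7 rose and 2 fell, and with shLITATS1-2, 5 rose and 2 fell, with median log2 fold changes of 0.42 and 0.22. ADAM17, a sheddase of MICA and MICB, fell from 63.7 CPM to 35.9 with shLITATS1-1 (log2 -0.83) and rose to 74.3 with shLITATS1-2 (0.22), and the hairpins differed by 1.05 (adjusted p = 3.37e-30 in edgeR). ADAM9 and ADAM10, of the same list and at 403 and 269 CPM with shNT, went the other way. ADAM9 rose by 0.59 and fell by 0.69 on the log2 scale, and ADAM10 rose by 0.41 and fell by 0.12. MMP2, a gelatinase, rose by 1.54 and 1.92. MMP14, a membrane-bound metalloproteinase, rose by 1.35 with the first hairpin from 1.42 CPM and did not pass with the second (0.26, SE 0.22).

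Among 19 other ligands of T cells, NK cells and phagocytes, 14 were tested. With shLITATS1-1, 10 rose and CALR fell, and with shLITATS1-2, 7 rose and CD24 and CALR fell, with medians of 0.67 and 0.24. CEACAM1, an inhibitory ligand of T and NK cells, rose from 7.07 CPM to 22.6 and 10.2 (log2 1.67 and 0.53). CD59, which blocks the complement membrane attack complex, rose from 153 CPM to 436 and 179 (1.51 and 0.23). ICAM1, the adhesion ligand of LFA-1, rose from 3.18 CPM to 7.11 and 5.28 (1.16 and 0.73). Tested directly, 12 of the 14 were lower with shLITATS1-2 than with shLITATS1-1, where 30.2% of all genes were lower and 60.9% were called. This was the most one-sided of the 8 wider lists in that comparison. The 12 calls rest on TMM scaling. Library size alone moved the median gene up by 0.13 in this comparison, and LGALS3 of this list was called lower at -0.14. Higher and lower calls were 3 and 3 for B7 and butyrophilins, 1 and 2 for nectins, and 1 and 3 for NKG2D ligands. They were 3 and 2 for the tumour necrosis factor family and 4 and 4 for ATP and adenosine. The PD-L1 list had 7 and 6, and the protease list 3 and 5.

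Of 10 tumour necrosis factor family ligands and receptors, 7 were tested. With shLITATS1-1, 4 rose and 3 did not pass, and all 7 rose with shLITATS1-2, with medians of 0.11 and 0.32. Of all tested genes, 30.5% and 27.8% rose. The TNFSF9 libraries of shLITATS1-2 overlapped with the controls (adjusted p = 0.0235 in edgeR). Neither TNFSF9 nor CD70 (0.0121) passed a threshold of 0.01. FAS, the death receptor engaged by T and NK cells, rose from 12.7 CPM to 34.8 and 23.6 (log2 1.46 and 0.89). CD40, a costimulatory receptor, rose by 0.68 and 0.58, and TNFRSF10B, a TRAIL receptor, by 0.11 and 0.32.

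**Figure D4:**
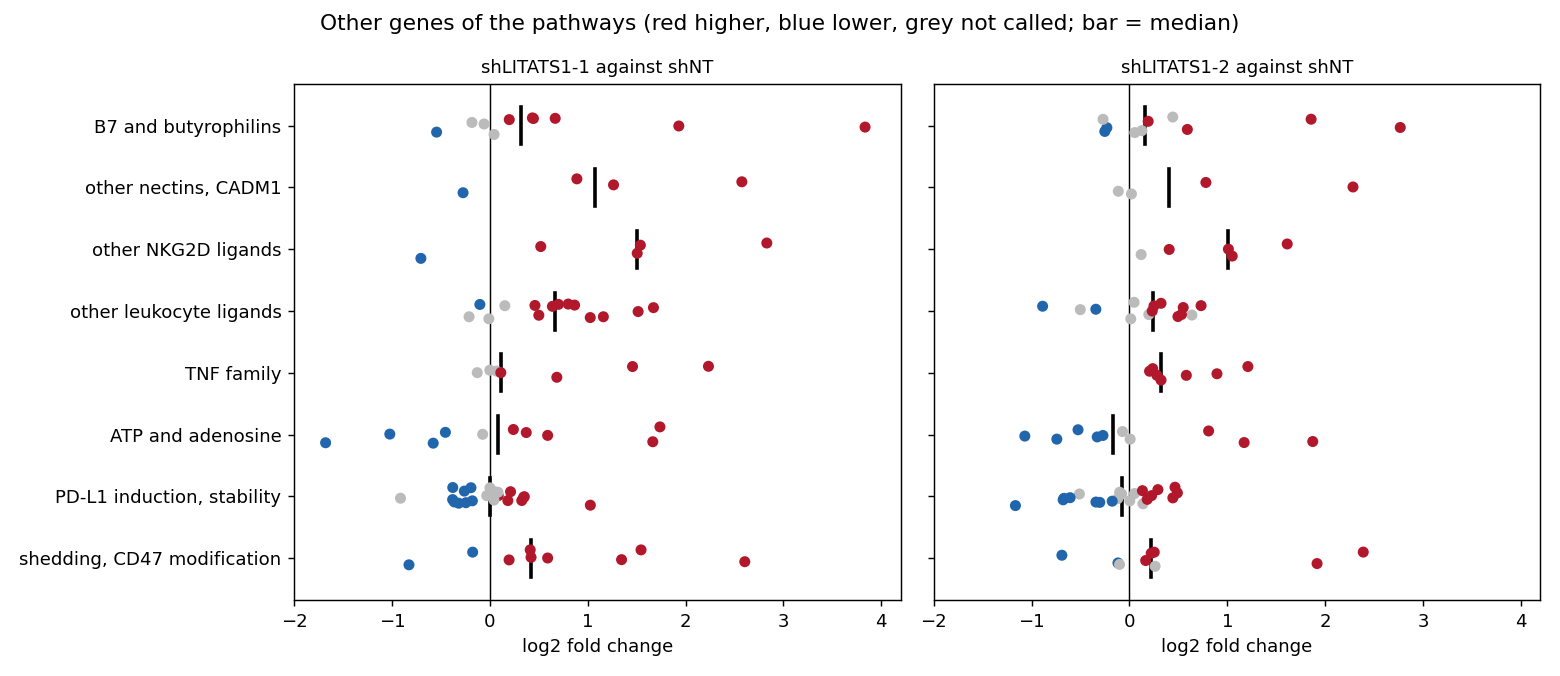
Log2 fold change (horizontal axis) of each tested gene of the 8 related lists with shLITATS1-1 (left) and shLITATS1-2 (right); red is called higher, blue called lower, grey not called, and the bar is the list's median. The other NKG2D ligands have medians of 1.51 and 1.01, and the genes of PD-L1 induction and stability lie on both sides of 0.

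Setting the hairpins against each other tests their difference without the controls. Of the 10 genes, NT5E, CD47 and MICB were higher and CD274 and PDCD1LG2 lower with shLITATS1-2, and 5 did not pass, where 60.9% of all tested genes were called, 30.7% higher and 30.2% lower. Only CD274 and PDCD1LG2 of the set differed at least 2-fold, as 8.32% of all genes did. Libraries did not overlap for the same 5 genes in this comparison (64.2% of all genes) and for 9 genes in each comparison with shNT (64.2% with shLITATS1-1 and 59.6% with shLITATS1-2). With library size alone in place of TMM, the median gene moved up by 0.11 (log2) for shLITATS1-2 against shNT and by 0.13 between the hairpins, and the share of called genes that were higher went from 49.0% to 67.1% and from 50.4% to 67.7%. With that scaling 9 of the 10 genes were called between the hairpins, 7 higher.

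Genes whose levels over the 9 libraries were most like each one of the set were found by the root mean square difference of log2 CPM after centring, among 12312 genes. For NT5E these were CLDN4, a tight junction claudin, at 0.084, and COL1A1, a fibrillar collagen chain, at 0.10, against 0.99 for the median gene. For ULBP2 they were THBD, thrombomodulin, at 0.063 and the integrin gene ITGB4 at 0.072 (median gene 0.62). CD274 was nearest to SIAE at 0.095 and the cadherin gene CDH19 at 0.10 (median 0.55), and PDCD1LG2 to IGFBP7 at 0.41 and MUC3A at 0.43 (median 1.14), which is a loose match. NECTIN2 was nearest to ZNF385A (0.020) and JUP (0.032), the plakoglobin gene, CD276 to VAPB (0.027) and FBXL20 (0.030), and MICA to PPP1R9A (0.034) and RAD1 (0.038). CD47 was nearest to DIDO1 (0.027) and SUN1 (0.030), MICB to DNM2 (0.024) and NR2F6 (0.029), and PVR to ST13 (0.017) and KDM2A (0.023). The 9 libraries form 3 groups, so likeness mostly reflects group means.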

How the data were processed

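RNA sequencing counts of 3 groups of 3 A549 libraries were used. The authors deposited counts of fragments per gene, unnormalized, in 1 table of 60676 genes. The submitters' processing notes name STAR 2.7.5a, HTSeq 0.12.4, cutadapt 2.10, FastQC and the build GRCh38. Annotation release and strand setting: not given in the sources used here. Reads of overlapping or antisense genes may therefore not be told apart. GENCODE 29 exons of other genes cover 3.44% of PVR's exon bases, 3.42% of NECTIN2's and 2.60% of MICA's, and none of those of the other 7 genes. Counter lines that name no gene, 19.0% to 20.3% of a library's fragments, entered neither library sizes nor tests. Fragments that were not aligned made up 3.66% to 3.86% of the shNT libraries and 5.39% to 5.57% of the knockdown libraries. The part of this difference in the results was not tested. Symbols came from a table of gene identifiers that matched 60357 genes, and LITATS1 is ENSG00000233621.

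Genes were filtered with filterByExpr (minimum count 10), scaled by TMM and fitted with all 9 libraries in edgeR 4.0.16 (glmQLFit, robust, 6 residual degrees of freedom; R 4.3.3, limma 3.58.1). Tests were two-sided, with p adjusted over all 15500 genes. Standard errors are the absolute log2 fold change before edgeR's shrinkage, divided by the root of the F statistic. Intervals are 95% and centred on the reported log2 fold change. Replicate pairs differed by 1.47 to 2.72 chi-square per degree of freedom over genes with at least 20 counts, so no library was taken for a copy of another. The procedure was tested on simulated data in which few genes changed, and only in the shLITATS1-1 libraries. That setting cannot show how scaling and calls behave where 61.0% of genes are called. Fragment counting limits CD274, PDCD1LG2 and ULBP2, which had under 200 fragments per library.

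The set and the wider lists were chosen with earlier results of these data known. Named genes are LITATS1, the 10 genes, in each of the 8 wider lists the 3 called genes of mean log2 CPM 1 or more that changed most in either comparison with shNT, the 2 genes most alike to each of the 10, and the leukocyte markers. ENTPD1, ADA, SLC29A2, IFNGR2, IRF1, CMTM6, ICOSLG, HHLA2, QPCTL, ULBP1, ULBP3, ADAM9, ADAM10, LGALS3, CALR, CD24, TNFSF9, CD70 and the neighbouring genes were named after their values were seen. Some genes that the rule names are not reported here. Promoter letters are RefSeq's. Alternatives were DESeq2 1.42.0, its size factors in edgeR, library size alone, no filter, a minimum count of 50, the replicate number as a block, only the 6 libraries compared, a threshold of 0.01, a 2-fold minimum and each library left out. Python 3.11.15 and Biopython 1.88 were used for sequences.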

Additional observations from a re-analysis of the deposited data

Results flagged for a closer look

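CD47 was called lower with shLITATS1-1 and higher with shLITATS1-2, and the hairpins differed by a log2 fold change of 0.33 (shLITATS1-2 minus shLITATS1-1, edgeR quasi-likelihood test). The same held for 12 genes of the wider lists, with opposite calls against shNT and a called difference between the hairpins. It was positive for ULBP1 (1.11), ADAM17 (1.05), B3GNT3 (0.71) and PDIA6 (0.43), and negative for IFNGR1 (-1.70), ADAM9 (-1.28), HIF1A (-0.93), CD38 (-0.77), BTN3A1 (-0.67), ADAM10 (-0.53), ARIH1 (-0.53) and JAK1 (-0.39). Called genes made up 61.0% of all tested genes with shLITATS1-1, 56.7% with shLITATS1-2 and 60.9% between the hairpins. The share of all tested genes with opposite calls is not given, so whether 12 is many was not tested. The rise of CD47 with shLITATS1-2 was lost in some fits with a library left out. The fall of BTN3A1 with shLITATS1-2 was lost in DESeq2 (adjusted p = 0.0858) and under library-size scaling (0.28 in edgeR), among other settings.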

How the results depend on the processing

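No log2 fold change of the 10 genes changed direction while called under any alternative. Of their values, 511 kept their side of the threshold, 23 lost and 6 gained a call. Library-size scaling gave 2967 lower genes for shLITATS1-2 against shNT, and between the hairpins it called 9 of the 10 genes, 7 of them higher; the cause was not tested. Requiring a 2-fold change left 1345 genes with shLITATS1-1 (951 higher, 394 lower), 922 with shLITATS1-2 (586 and 336) and 1289 between the hairpins (472 and 817). Of the 10 genes it left 4 with shLITATS1-1, 2 with shLITATS1-2, both higher, and 2 between the hairpins, both lower; the counts of lower genes against shNT and of higher genes between the hairpins were then 0 in edgeR, from 2, 1 and 3 without that minimum. Of the counts over the wider lists, 782 stayed within 1.5 times and 82 did not. With 1 library left out, 8 of the 10 genes were called with shLITATS1-1, 5 to 7 with shLITATS1-2 and 5 between the hairpins. No pairing by replicate number was seen. Deviations of same-numbered libraries correlated between -0.188 and 0.0795, and in 3 of 18 checks a library correlated best with its own number. With 3 libraries per group these correlations cannot exclude a pairing. The replicate block called 9295, 8630 and 9264 genes in the 3 comparisons, from 9449, 8787 and 9439, and 8, 7 and 5 of the 10 genes, as without it. Low counts limit PDCD1LG2 most, with 7 to 28 fragments in the shNT and shLITATS1-2 libraries.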
